A study of Mus musculus with 4 samples.

Results

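Expression of Wnt pathway targets and TCF factors was followed in E14 mouse embryonic stem cells with and without knockdown of Kdm2b. The genes were chosen by name: Axin2, Lef1, Tcf7, Tcf7l1, Tcf7l2, Sp5, Dkk1, Nkd1, Wnt3 and Wnt8a, 10 in all. Of these, 9 had a probe set whose platform annotation gave exactly 1 symbol, among 19938 genes tested, and each of the 9 was read by a single probe set. Tcf7 was not analysed here. RNA came from 2 arrays of control E14 cells and 2 arrays of Kdm2b KD E14 cells, a line of the inbred 129 strain, hybridised to Affymetrix MoGene-1_0-st-v1 arrays. All cells grew on gelatin in medium with 15% fetal bovine serum and leukemia inhibitory factor at 1000 units/ml. Per the labels, they were infected with lentiviral vectors at 10 MOI and put under puromycin at 2 µg/ml 48 h later. What the control vector carried, how long after infection RNA was taken, and whether replicates were separate cultures is not given in the labels, so the p-values measure the spread between these samples only, which may be technical.

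Wnt ligands are secreted lipid-modified proteins that bind Frizzled receptors and Lrp coreceptors, and the signal stops a destruction complex built on Axin and Apc from degrading beta-catenin. Beta-catenin then joins the TCF/LEF transcription factors, of which Lef1, Tcf7, Tcf7l1 and Tcf7l2 are the mammalian family, and turns on targets such as Axin2, Sp5, Nkd1, Lef1 and Dkk1. Several of these targets act back on the pathway as inhibitors. In mouse embryonic stem cells Tcf7l1, also known as Tcf3, is the main family member and represses genes of the stem cell state.

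Kdm2b, which encodes a histone demethylase with a zinc finger for unmethylated CpG dinucleotides, was lower on both knockdown arrays, as their labels say. It read 10.74 and 10.64 on a log2 scale without knockdown and 9.20 and 9.19 with it, a log2 fold change of -1.495 (limma: SE 0.0661, adjusted p = 0.0039). The 10 markers of embryonic stem cells averaged 13.3 on both arrays of control cells and 13.3 to 13.32 after knockdown, and 0 passed the threshold in either direction (limma, 1 higher and 1 lower at an unadjusted p under 0.05). The 9 fibroblast and feeder markers averaged 7.73 to 7.79 on the 4 arrays. With an adjusted p under 0.05 as the threshold, 5.00% of all genes were higher after knockdown and 7.19% lower, together 12.2%. Their median log2 fold change was 0.03. At an unadjusted p under 0.05 (limma), 3016 of the 19938 genes were higher and 2925 lower.

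Dkk1 and Lef1 rose after Kdm2b knockdown, and the other 7 genes did not pass the threshold. Thus 2 of 9 were higher, against 5.00% of all genes, and 0 were lower, against 7.19% (limma). At an unadjusted p under 0.05, 3 of the 9 were higher and 0 lower (limma), against 3016 and 2925 of all 19938 genes. The median log2 fold change of the 9 was 0.10, and its median size was 0.125, against 0.115 over all genes. The knockdown arrays lay wholly above the control arrays for 5 genes (Dkk1, Lef1, Axin2, Nkd1 and Sp5), wholly below for 0, and the groups overlapped for 4. Over all genes the groups were likewise separate for 58.8%, with knockdown above in 33.8% and below in 25.0%.

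The promoters of the genes that rose are shown because the TCF/LEF proteins recognise a short DNA motif and Kdm2b binds CpG. Each sequence covers the 250 bases before the most upstream RefSeq transcription start of the gene in build GRCm38.p6, on the gene's own strand. That of Sp5, a target that did not pass the threshold, is set beside them because it held both forms of the motif searched. The Dkk1 window is chr19:30549497-30549746 (minus strand), that of Lef1 chr3:131110047-131110296 (plus strand) and that of Sp5 chr2:70474673-70474922 (plus strand). Capitals mark every CTTTGAT or CTTTGTT on either strand.
Dkk1: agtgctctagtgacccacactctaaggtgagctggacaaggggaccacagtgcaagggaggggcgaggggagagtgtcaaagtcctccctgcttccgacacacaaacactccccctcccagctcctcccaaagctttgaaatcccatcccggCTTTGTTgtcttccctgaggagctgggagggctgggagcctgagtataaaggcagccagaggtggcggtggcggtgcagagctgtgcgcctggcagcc
Lef1: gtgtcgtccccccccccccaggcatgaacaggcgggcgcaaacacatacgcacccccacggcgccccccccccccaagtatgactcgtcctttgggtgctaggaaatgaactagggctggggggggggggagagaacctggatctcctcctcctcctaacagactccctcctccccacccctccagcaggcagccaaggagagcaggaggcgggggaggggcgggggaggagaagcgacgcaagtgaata
Sp5: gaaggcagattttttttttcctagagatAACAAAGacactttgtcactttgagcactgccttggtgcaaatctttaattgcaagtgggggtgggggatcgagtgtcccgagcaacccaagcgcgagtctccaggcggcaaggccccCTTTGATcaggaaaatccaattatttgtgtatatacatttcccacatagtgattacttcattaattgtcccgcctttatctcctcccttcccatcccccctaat

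CTTTGTT occurred once in the Dkk1 sequence, neither form occurred in that of Lef1, and Sp5 held 1 copy of each. Of 32851 promoter windows of the same length in the RefSeq table, 8.06% held at least 1 of the forms, 3.21% CTTTGAT and 5.03% CTTTGTT. The table held 14 such windows for 9 of the 10 genes, since some have several starts, and 3 of the 14 had a match. The other match was a CTTTGTT before the downstream start of Tcf7l2. A match is a description of these letters and no evidence of binding.

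CpG dinucleotides were counted in the same windows. The Dkk1 sequence held 6 and the upstream Lef1 sequence 11, where the median window of the table held 6 and the quartiles were 2 and 16. Windows of genes that did not pass the threshold ran from the same count upward. Sp5 and Nkd1 held 6 each, Wnt3 held 22, Axin2 24, Tcf7l1 29 and the upstream start of Tcf7l2 30. The downstream start of Tcf7l2 held 7, and the further Lef1 starts held 14, 6 and 5. Thus both genes that rose held fewer than Wnt3, Axin2, Tcf7l1 or the upstream start of Tcf7l2, but no fewer than Sp5 or Nkd1. Bases after the start were not counted, and no relation of the counts to the changes was tested.

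Dkk1 encodes a secreted inhibitor that binds the Lrp5 and Lrp6 coreceptors. The control arrays read 8.42 and 8.56 (log2, mean 8.49 ± 0.099, SD, n = 2), and the knockdown arrays 9.48 and 9.98 (mean 9.73 ± 0.354, SD, n = 2). Both knockdown arrays were above both controls, and the knockdown arrays differed from each other more than the controls did. The log2 fold change was 1.24 (limma: SE 0.162, adjusted p = 0.012), or 2.36-fold (95% confidence interval 1.79 to 3.11). In RNA from a whole culture, more cells that express Dkk1 and more Dkk1 RNA per cell cannot be told apart. With 1 array left out in turn the log2 fold change ran from 0.99 to 1.49, and the adjusted p was 0.268 when control replicate 1 was left out, 0.22 for control replicate 2, 0.24 for knockdown replicate 1 and 0.196 for knockdown replicate 2.

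Lef1, a TCF/LEF factor that is itself a Wnt target in many tissues, rose on both knockdown arrays by a similar amount. The control arrays read 9.0 and 8.86 (log2, mean 8.93 ± 0.099, SD, n = 2), against 9.83 and 9.63 after knockdown (mean 9.73 ± 0.141, SD, n = 2). The gap between the groups was larger than the spread within either of them. This was a log2 fold change of 0.80 (limma: SE 0.0926, adjusted p = 0.00924), or 1.74-fold (95% confidence interval 1.49 to 2.04). The log2 fold change ran from 0.70 to 0.90 with 1 array left out, and the adjusted p was 0.258 when control replicate 1 was left out, 0.201 for control replicate 2, 0.24 for knockdown replicate 1 and 0.196 for knockdown replicate 2. Those fits leave 1 residual degree of freedom, and limma then called 0 of all 19938 genes in each, with 3495 to 4215 at an unadjusted p under 0.05.

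**Figure D1:**
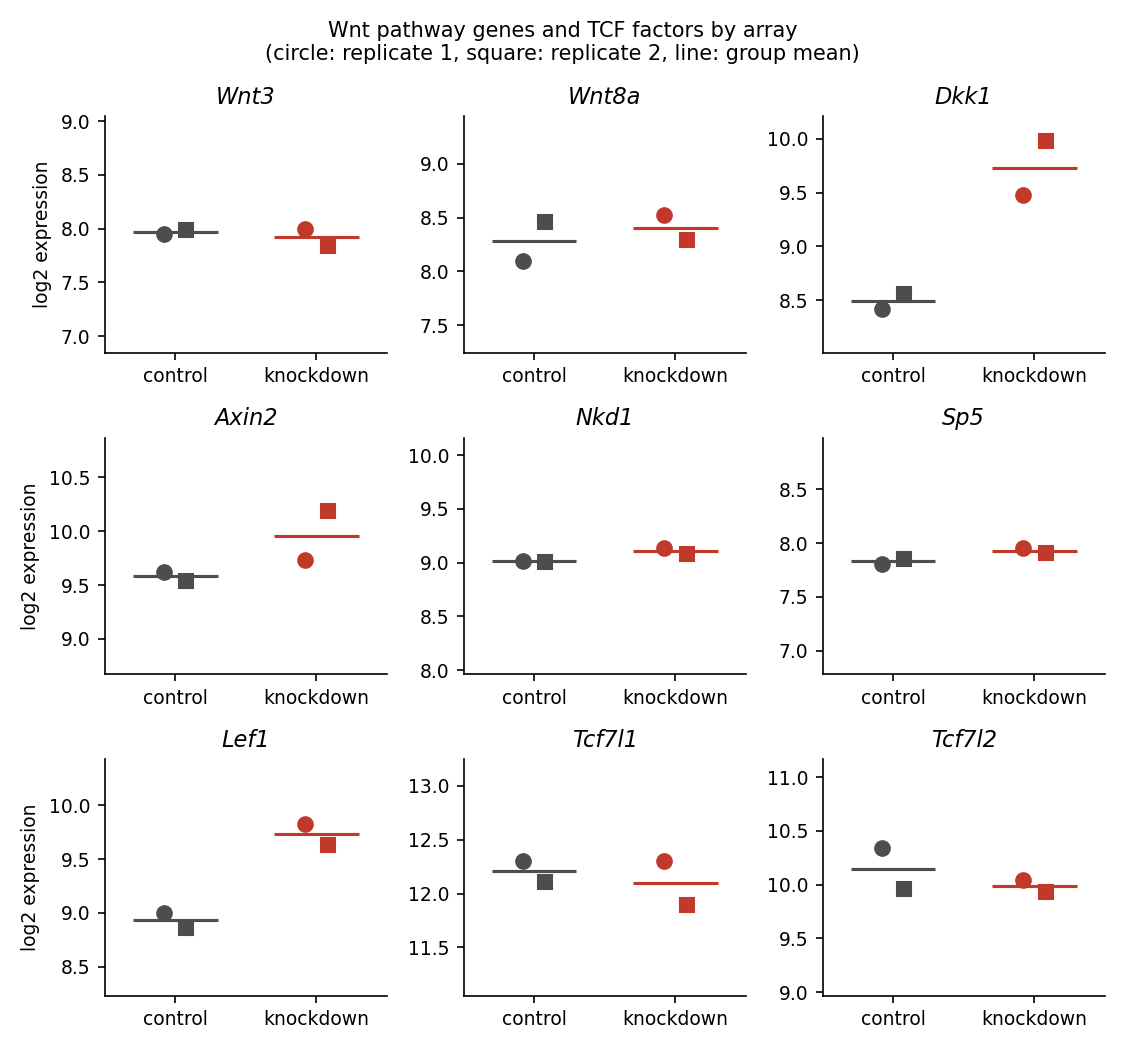
Log2 expression of the 9 measured genes on each array, 1 panel per gene, with control arrays in grey, knockdown arrays in red, replicate 1 as a circle, replicate 2 as a square and the group mean as a line. Every panel spans the same number of log2 units; Dkk1 (means 8.49 and 9.73) and Lef1 (8.93 and 9.73) show the widest separation of the groups.

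Neither of the other TCF factors measured passed the threshold. Tcf7l1, the family's main repressor in stem cells, read 12.30 and 12.11 in control and 12.30 and 11.89 in knockdown cells, so the groups overlapped. Its log2 fold change was -0.11 (95% confidence interval -0.46 to 0.24, adjusted p = 0.655, limma). Tcf7l2, a family member best known from the intestine and the pancreatic islet, read 10.34 and 9.96 in control and 10.04 and 9.93 in knockdown cells. The higher knockdown array lay between the controls, and the log2 fold change was -0.165 (95% confidence interval -0.48 to 0.15, adjusted p = 0.44, limma). These intervals do not show that either gene was unaltered, but both lie wholly below the interval of Lef1, which was 0.57 to 1.03. The difference in change between the family members was not itself tested.

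Axin2, the scaffold of the destruction complex that is induced by the pathway in most tissues, was above the controls on both knockdown arrays but unevenly so. It read 9.62 and 9.54 (mean 9.58 ± 0.0566, SD, n = 2) in control cells, against 9.73 and 10.19 after knockdown (mean 9.96 ± 0.325, SD, n = 2). Knockdown replicate 1 was close to the controls and knockdown replicate 2 well above them. The log2 fold change of 0.38 (SE 0.148) had an unadjusted p of 0.0434 and an adjusted p of 0.155 in limma, and leaving out knockdown replicate 2 gave 0.15 where leaving out knockdown replicate 1 gave 0.61.

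The remaining feedback and target genes showed small changes that did not pass the threshold. Nkd1, an intracellular inhibitor that acts on Dishevelled, read 9.02 and 9.01 in control and 9.14 and 9.08 in knockdown cells, a log2 fold change of 0.095 (95% confidence interval -0.06 to 0.25, adjusted p = 0.356, limma). Sp5, a zinc-finger transcription factor directly induced by beta-catenin, read 7.81 and 7.85 in control and 7.95 and 7.91 in knockdown cells. Its log2 fold change was 0.10 (95% confidence interval -0.05 to 0.25, adjusted p = 0.331, limma), and 0.043 after quantile normalization. For both genes the groups were separate, and their intervals exclude rises of the size seen in Lef1.

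The ligands Wnt3 and Wnt8a, which are active in the early embryo around gastrulation, did not pass the threshold. Wnt3 read 7.95 and 7.99 in control and 8.0 and 7.84 in knockdown cells, with a log2 fold change of -0.05 (95% confidence interval -0.24 to 0.14, adjusted p = 0.704, limma). Wnt8a read 8.10 and 8.46 in control and 8.52 and 8.29 in knockdown cells, with a log2 fold change of 0.125 (95% confidence interval -0.21 to 0.46, adjusted p = 0.589, limma). For both the groups overlapped, and the Wnt8a controls lay 0.36 apart. Sp5, Wnt3 and Wnt8a had mean log2 values of 7.88, 7.945 and 8.342, under the median over the genes tested. The control means of Dkk1 (8.49) and Lef1 (8.93) also lay under that median of 9.

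**Figure D2:**
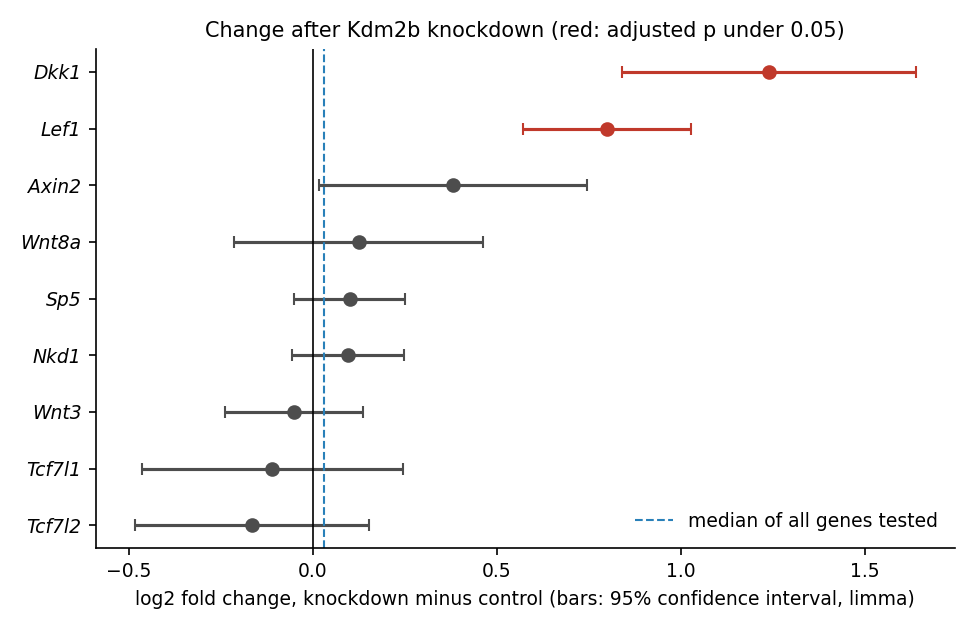
Log2 fold change of each measured gene, knockdown minus control, as a point with its 95% confidence interval from limma, red where the adjusted p was under 0.05, and a dashed line at the median of all genes tested (0.03). Dkk1 at 1.24 and Lef1 at 0.80 are red; the interval of Axin2 starts just above 0, and the other 6 cross it.

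Markers of primitive endoderm, the extraembryonic lineage directed by Gata6, were higher on the same knockdown array as Dkk1 and Axin2. Of 9 measured, 4 were higher and 0 lower after knockdown, against 5.00% and 7.19% of all genes. With an unadjusted p under 0.05, 8 were higher and 0 lower (limma), against 3016 and 2925 of all 19938 genes. The mean log2 level of the 9 was 9.31 and 9.11 in control cells and 9.83 and 10.29 in knockdown cells. All 9 were higher in knockdown replicate 2 than in knockdown replicate 1, where 46.6% of all genes were. Gata6 read 11.74 and 12.60 in the knockdown replicates and Pdgfra 9.45 and 10.69. Between the same arrays Dkk1 differed by 0.50 and Axin2 by 0.46, beyond the 0.28 that 95% of genes stayed within, while Lef1 was lower in replicate 2, by -0.20. Tcf7l1 was also lower in replicate 2, by -0.41, as were Wnt8a (-0.23), Wnt3 (-0.16), Tcf7l2 (-0.11), Nkd1 (-0.06) and Sp5 (-0.04). Of the measured Wnt genes and TCF factors chosen by name, only Dkk1 and Axin2 were higher there. Of the markers, Col4a1 (0.03), Dab2 (0.10), Lama1 (0.24) and Foxa2 (0.25) differed between the knockdown arrays by less than that 0.28. Between the control arrays, 7 of the 9 markers were lower in replicate 2, as was Axin2, by -0.08, while Dkk1 was higher there, by 0.14. No marker can be read as absent, since the log2 values have no zero. The part of these markers in the changes of Dkk1 and Axin2 was not tested.

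Primitive streak and mesoderm markers, several of which follow Wnt signalling in the embryo, were also measured. Of 9, 3 were higher and 0 lower (limma), against 5.00% and 7.19% of all genes. The 3 were Eomes (log2 fold change 0.915), Kdr (0.355) and Evx1 (0.265). The counts at an unadjusted p under 0.05 were also 3 and 0 (limma), against 3016 and 2925 of all 19938 genes. The 9 markers had a mean log2 level of 8.40 and 8.32 in control and 8.54 and 8.56 in knockdown cells. Mixl1 and Mesp1, both early streak genes, had values of -0.055 and 0.065 with adjusted p-values of 0.702 and 0.653 in limma. The part of these markers in the rise of Lef1 was not tested. Of 7 trophectoderm markers 2 were higher and 1 lower, of 5 neural markers 1 was higher and 1 lower, and of 9 fibroblast and feeder markers 1 was higher and 1 lower. Over all genes the shares were 5.00% higher and 7.19% lower.

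**Figure D3:**
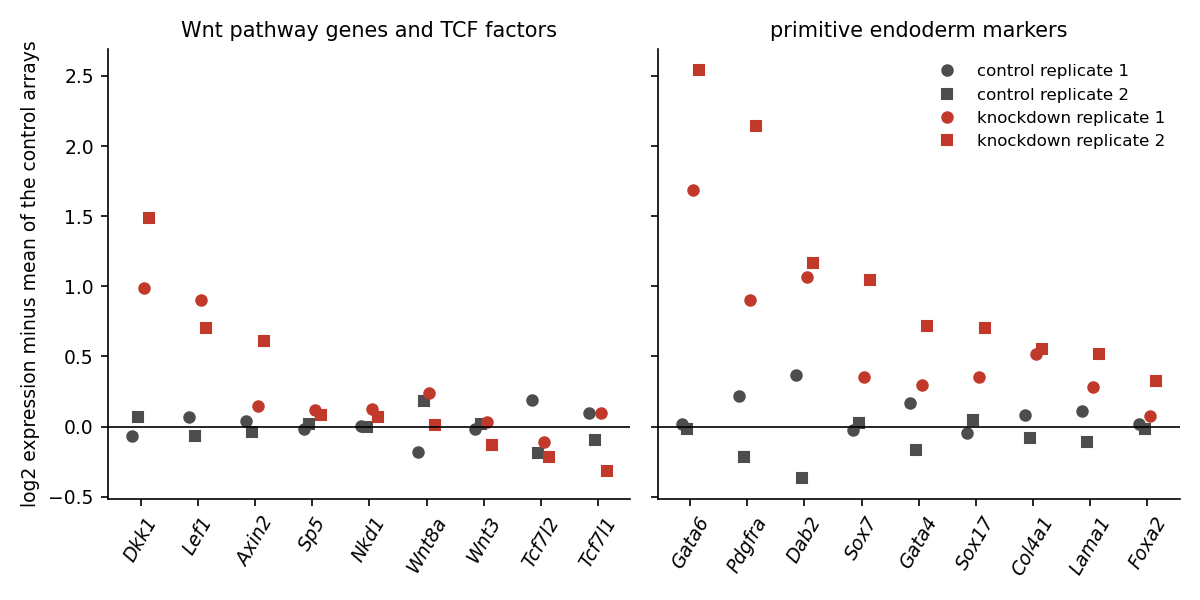
Log2 expression on each array minus the mean of the control arrays, for the 9 measured genes (left) and 9 primitive endoderm markers (right), with control arrays in grey, knockdown arrays in red, replicate 1 as circles and replicate 2 as squares. Dkk1 (0.99 and 1.49) and Axin2 (0.15 and 0.61) are higher in knockdown replicate 2, as are all 9 markers, while Lef1 (0.90 and 0.70) is not.

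Beyond these genes, 133 other genes of the Wnt pathway were measured, in 8 lists by role. Of them 12 were higher (9.02%, against 5.00% of all genes) and 9 lower (6.77%, against 7.19%), and their median log2 fold change was 0.06, against 0.03. Each was read from the fit over all genes.

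Among 17 further Wnt ligands, Wnt6 rose by 0.36 (limma: SE 0.0628, adjusted p = 0.022) and Wnt2 by 0.27 (adjusted p = 0.0467), while Wnt7b fell by 0.395 (adjusted p = 0.0222). The list's median was 0.12, and 16 of 17 values were positive, against 56.9% of all genes. The count was again 16 of 17 when arrays were quantile-normalized or median-centred, and 14 of 17 without knockdown replicate 2. Wnt2 had a log2 fold change of 0.215 and an adjusted p of 0.0871 after quantile normalization. All 3 had low mean log2 values, 7.675 to 8.745.

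Of 8 genes for ligand secretion and R-spondins, 0 were higher and 1 was lower, against 5.00% and 7.19% of all genes. The lower gene was the retromer subunit gene Vps26a (-0.315, adjusted p = 0.0341, limma). With an unadjusted p under 0.05, 1 was higher and 3 lower (limma), against 3016 and 2925 of all 19938 genes. Receptors and their regulators went both ways, 2 of 20 higher and 2 lower, against 5.00% and 7.19% of all genes, with a median of 0.01. Fzd10 and Lgr6, a receptor for R-spondins, each rose by 0.335, with adjusted p-values of 0.026 and 0.0433. The coreceptor gene Lrp5, whose protein Dkk1 binds, fell by 0.385 (SE 0.0746, adjusted p = 0.0292), and Fzd7, a Frizzled gene of embryonic stem cells, fell by 0.315 (adjusted p = 0.0367).

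Among 20 other antagonists, 2 were higher and 0 lower (limma), against 5.00% and 7.19% of all genes, with a median of 0.06. With an unadjusted p under 0.05, 3 were higher and 2 lower (limma), against 3016 and 2925 of all 19938 genes. Notum, which encodes a secreted enzyme that removes the lipid from Wnt proteins and is a Wnt target in several tissues, read 9.03 and 9.01 in control and 9.81 and 9.63 in knockdown cells. The groups were far apart relative to the replicates, and Notum rose by 0.70 (SE 0.0794, adjusted p = 0.00881). Sfrp5, a secreted protein that binds Wnts, rose by 0.355 (adjusted p = 0.0342).

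Of 21 genes of the cytoplasmic core 1 was higher and 2 lower, against 5.00% and 7.19% of all genes. Their median log2 fold change was -0.015 and its median size 0.12, against 0.115 over all genes. Of the 3 Dishevelled genes, Dvl3 rose by 0.31 (adjusted p = 0.0412, limma), Dvl2 fell by 0.465 (SE 0.0844, adjusted p = 0.0245) and Dvl1 did not pass (0.175, adjusted p = 0.125). The tankyrase gene Tnks2, whose product destabilises Axin, fell by 0.31 (adjusted p = 0.0341). Ctnnb1, which encodes beta-catenin, had a log2 fold change of 0.085 (95% confidence interval -0.07 to 0.24, adjusted p = 0.401). The destruction complex genes Gsk3b and Apc had values of -0.225 (adjusted p = 0.0863) and -0.085 (adjusted p = 0.521).

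Of 20 nuclear cofactors, 2 were higher and 1 lower, against 5.00% and 7.19% of all genes, with a median of 0.015. Among genes of the Groucho family, corepressors that bind TCF factors in the absence of beta-catenin, Tle3 fell by 0.525 (limma: SE 0.0885, adjusted p = 0.0204) and Tle4 rose by 0.325 (adjusted p = 0.0385). Tle1 (-0.095, adjusted p = 0.44) and Tle2 (0.07, adjusted p = 0.519) did not pass the threshold. Neither did the related gene Tle5 (0.055, adjusted p = 0.696, limma), to which that description of corepressors is not meant to apply. Cby1, whose product binds beta-catenin and keeps it from TCF factors, rose by 0.365 (adjusted p = 0.0455).

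Of 17 other reported Wnt targets, 3 were higher and 0 lower (limma), against 5.00% and 7.19% of all genes, with a median of 0.14. With an unadjusted p under 0.05, 6 were higher and 1 lower (limma), against 3016 and 2925 of all 19938 genes. Myc, a growth regulator with many inputs besides Wnt, read 11.57 and 11.95 in control and 12.67 and 12.90 in knockdown cells and rose by 1.025 (SE 0.142, adjusted p = 0.0136). The cyclin gene Ccnd1 rose by 0.375 (adjusted p = 0.0316) and the homeobox gene Cdx2 by 0.35 (adjusted p = 0.0265). Among 10 genes known to be repressed by Tcf7l1 in stem cells, 0 were higher and 2 lower (limma), with a median of -0.03. With an unadjusted p under 0.05, 1 was higher and 4 lower (limma). Both pairs of counts have the same all-gene background as those of the 17 targets. Klf2 fell by 0.75 (SE 0.068, adjusted p = 0.00592) and Tcl1 by 0.365 (adjusted p = 0.0221), whereas Nanog (0.14, adjusted p = 0.192) and Esrrb (-0.165, adjusted p = 0.163) did not pass. When any of the 4 arrays was left out, 0 of the 133 pathway genes were called, as for all genes.

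**Figure D4:**
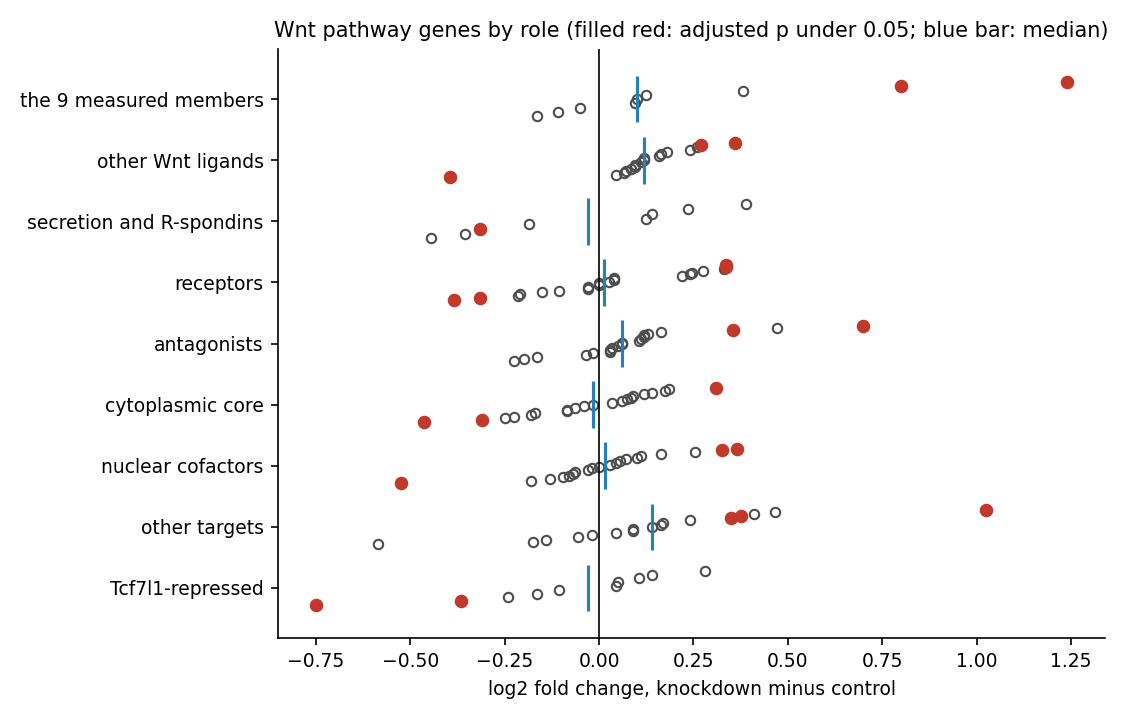
Log2 fold change, knockdown minus control, of each measured gene in the 9 groups of the Wnt pathway by role, filled red where the adjusted p was under 0.05 and open otherwise, with a blue bar at each group's median. Dkk1 (1.24), Myc (1.025), Lef1 (0.80) and Notum (0.70) lie farthest to the right, and Klf2 (-0.75) farthest to the left.

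The genes most like Dkk1 and Lef1 over the 4 arrays were found by the Euclidean distance between log2 profiles, each centred on its own mean. Clone names, predicted genes, microRNAs and small nucleolar RNAs were left out of this ranking. Nearest to Dkk1 were Exoc3l (distance 0.158), Esam (0.16), an adhesion molecule gene of endothelial cells, and Ankrd34a (0.166), with log2 fold changes of 1.27, 1.205 and 1.155. Nearest to Lef1 were Tmem92 (0.0663), the integrin gene Itga8 (0.0781) and Ccnjl (0.0792), with log2 fold changes of 0.82, 0.86 and 0.725. With 4 arrays such a distance mostly reflects the size of the change and the order of the replicates.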

How the data were processed

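Labelled RNA from 4 samples was read on arrays, and the authors deposited 1 table of log2 expression for 35557 probe sets, with 2 decimals, for which the submitters' processing notes name Affymetrix Expression Console. Version, background step and scaling between arrays were not given in the sources used here. The log2 scale was read from the values (3.12 to 14.74), which are not centred per gene, with array medians of 8.49 to 8.55. Groups and replicate numbers came from the sample titles. Probe sets with 1 gene symbol in the platform annotation (21789; 1621 had several and 12147 no entry) were reduced to the brightest per gene, giving 19938 genes; 21698 of the 21789 matched RefSeq (GRCm38.p6) by Entrez ID. Some listed genes, Tcf7 among them, were not analysed here, and Aes was matched as Tle5.

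Knockdown was compared with control by limma 3.58.1 in R 4.3.3 (group as the only term, eBayes with a prior of 3.9 degrees of freedom, Benjamini-Hochberg adjustment over all 19938 genes, adjusted p under 0.05). Tested on simulated data for this comparison (19938 genes), it recovered 0 of 50 genes changed 1.25-fold, 17 of 50 at 1.5-fold, 38 of 50 at 2-fold and 48 of 50 at 3-fold, and called 1 of 19738 unchanged genes. The simulation left 19738 of the 19938 genes unchanged, whereas 12.2% of genes were called on the measured arrays. The adjustment is stricter when fewer genes change, so these recovery rates need not hold for the measured arrays. There, Evx1 passed the threshold at 1.2-fold. The number of arrays limits the precision. Named are all 9 measured genes of the 10 listed, up to 4 called genes per pathway list, a few fixed genes (Ctnnb1, Gsk3b, Apc, Esrrb, Nanog, Klf2, Cdx2) and the 3 genes most like each of the 2 called genes among the 9. That likeness ranking left out clone names, predicted genes, microRNAs and small nucleolar RNAs. Marker genes of other cell types named singly, Dvl1, Tle1, Tle2 and Tle5 were picked after their values were seen. The listed genes and the pathway and marker lists were chosen with earlier results of these data known. Same-numbered replicates deviated together only weakly (r = 0.095 across genes).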

Additional observations from a re-analysis of the deposited data

How the results depend on the processing

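Dkk1 and Lef1 kept their direction under all 13 alternatives run. Both stayed past the threshold with arrays quantile-normalized or median-centred, dim genes removed, an intensity trend or a robust prior. So they did with the mean of probe sets or every probe set with 1 symbol (adjusted p 0.00696 to 0.0139 across these settings). Each was read by a single probe set, so both probe-set settings left its log2 fold change unaltered and could move only the adjusted p. The same was true of dim-gene removal, the trend and the robust prior. A minimum of 1.5-fold could not remove Dkk1 (2.36-fold) or Lef1 (1.74-fold), since it kept the main adjusted p. With the replicate number as a block, 0 genes were called higher and 0 lower, hence 0 of the 9 measured genes and 0 of the other pathway genes (5411 genes at an unadjusted p under 0.05), and Dkk1 and Lef1 each had an adjusted p of 0.127; the labels do not say that a number pairs samples, and the fit leaves 1 residual degree of freedom. With each array left out in turn the counts of all genes, of the 9 and of the other pathway genes called ran from 0 to 0 in either direction, and the median of the 9 from 0.065 to 0.125; the lone array is then assumed to vary like the other group. With 1 array left out, the sign turned for Tcf7l2 (from -0.355 to 0.025), Wnt8a (-0.055 to 0.305), Tcf7l1 (-0.315 to 0.095), Wnt3 (-0.13 to 0.03) and Apc (-0.175 to 0.005); the array was control replicate 1 for Tcf7l2 and Wnt8a and knockdown replicate 2 for Tcf7l1, Wnt3 and Apc. With dim genes removed, which leaves out Sp5, Wnt3 and Wnt8a, the median of those left was 0.2375. Dkk1 and Lef1 stayed among them only through their knockdown arrays, so this median is no separate support for a rise. Requiring 1.5-fold left 240 genes higher and 447 lower, and, of the other pathway genes, 2 higher (Notum and Myc) and 1 lower (Klf2).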

Other observations

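Several further pathway genes lay just outside the threshold and were chosen after their values were seen. Rspo1, which encodes an R-spondin that strengthens Wnt signals, had a log2 fold change of 0.39 (adjusted p = 0.0669, limma), and Apcdd1, a membrane inhibitor and Wnt target, one of 0.47 (adjusted p = 0.0603). Porcn, the enzyme gene that attaches the lipid to Wnt proteins, had a log2 fold change of -0.445 (adjusted p = 0.0836), and Nkd2, the paralog of Nkd1, one of -0.225 (adjusted p = 0.0716). The receptor genes Ror1 and Ror2, which serve Wnt signals that do not use beta-catenin, had values of 0.33 (adjusted p = 0.0779) and 0.245 (adjusted p = 0.0601). Lgr5, a stem cell marker and target in the intestine, had a value of 0.275 (adjusted p = 0.0773) at a mean log2 level of 7.232.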
